A study of Mus musculus with 55 samples.

Results

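The cytosolic ribosomal protein genes were examined across single mouse oocytes of 4 genotypes and 2 stages. They were taken by symbol alone, as every gene of the oocyte count files with an Rpl, Rps or Rplp symbol, leaving out the pseudogenes that carry -ps in their name and the S6 kinases. This gave 87 genes of 51734, of which 52 are named for the large and 35 for the small subunit. The rule used no expression value, and 83 of the 87 passed the filter on low counts in the comparisons of genotype and stage. The 4 that did not were Rpl3l, a muscle paralogue of Rpl3, with Rps3a2, Rps3a3 and Rps12l1, the last of which had no count in any library.

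Each cytosolic ribosome holds a single copy of most of these proteins, the acidic stalk proteins apart, so their genes are usually expressed in balance. Their mRNAs are short, and many begin with a C followed by a run of pyrimidines, the 5′ terminal oligopyrimidine (TOP) tract through which mTOR signalling controls their translation. A growing mouse oocyte stores ribosomes and mRNA, stops transcription when fully grown, and passes through meiotic maturation to metaphase II (MII) on stored mRNA, much of which loses its poly(A) tail or is degraded on the way.

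The study made mice with loss-of-function substitutions in the ADD domain, the histone H3-reading module, of the DNA methyltransferase DNMT3A and of its cofactor DNMT3L. The knock-in mutations were made with CRISPR/Cas9, were carried in all tissues and were backcrossed to C57BL/6J. Fully grown oocytes (FGOs) came from ovaries of females 10 to 12 weeks old, after removal of cumulus cells. The labels give no such account for MII oocytes. The study's methods describe their collection for in vitro fertilization, from the oviducts of females of another age range that had received inhibin antiserum and chorionic gonadotropin, so stage, hormone treatment, age and place of collection cannot be told apart. There were 18 wild-type FGOs, 8 with wild-type Dnmt3a and Dnmt3L D124A on both alleles (Dnmt3L mutant), 8 with Dnmt3a ADA on both alleles and wild-type Dnmt3L (Dnmt3a mutant), 8 with both mutations (double mutant) and 10 wild-type MII oocytes. Each library was 1 oocyte and held 7832458 to 23739871 counts, with a median of 14410784. The labels do not say which oocytes shared a female, so p-values measure the spread between oocytes. The libraries fall into a lower and a higher set, with under 80% or at least 80% of reads mapped in the study's own read summary, and the wild-type FGOs divide into 8 and 10. All 8 double mutant libraries are of the lower set and all 8 Dnmt3L mutant libraries of the higher set. Between these groups genotype and set cannot be told apart, and against all 18 wild-type FGOs they are partly mixed. Each group can be compared with the wild-type FGOs of its own set. All 12 oocyte markers had a median of at least 1 CPM (counts scaled to a library of 1000000) in every group.

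In wild-type FGOs the members together took 0.349%, 0.398% and 0.462% of all counts in the lowest, median and highest library. Large subunit genes took 0.260% ± 0.0141 (SD, n = 18) and small subunit genes 0.142% ± 0.0142. Levels were compared between genes as TPM, which divides by the gene length in the files. Rplp1, an acidic stalk protein, was highest at 885 ± 157 TPM (SD, n = 18), followed by Rpl17 at 724 ± 78.5 TPM and Rpl36 at 428 ± 57.6 TPM. The libraries ran from 719 to 1219.6 TPM for Rplp1 and from 549 to 830.4 TPM for Rpl17, so the first and second members overlapped. The lowest 3 of the members tested were Rpl22l1, a paralogue of Rpl22, at 5.83 ± 1.89 TPM, Rpl9 at 4.43 ± 2.46 TPM and Rpl24 at 1.86 ± 0.782 TPM. The file lengths merge all annotated exons. With the length of 1 principal transcript instead, Rplp1 and Rpl17 stayed first and second at 724 and 589.7 TPM, Rpl36 moved from rank 3 to rank 11 at 368 TPM, and Rpl22l1, Rpl9 and Rpl24 stood at 17.2, 15.1 and 2.31 TPM.

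Ribosomal protein genes have many processed copies in the mouse genome, and the level of a single member is uncertain to that extent. Of 82 members with a principal transcript, 76 had at least 1 annotated copy elsewhere with 95% identity or more over at least 80% of the coding sequence. The median was 5 copies and the highest 58, for Rpl21. How the counting treated reads that fit several copies is not given in the sources used here. The 276 genes named as ribosomal protein pseudogenes summed to a mean of 44.2 CPM in wild-type FGOs and 31.6 CPM in MII oocytes.

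Across groups the summed share of the members was similar among FGOs and lower at MII. Dnmt3L mutant FGOs held 0.384% ± 0.0250 (SD, n = 8), Dnmt3a mutant FGOs 0.380% ± 0.0130 (n = 8) and double mutant FGOs 0.404% ± 0.0244 (n = 8), beside 0.402% ± 0.0279 (n = 18) in the wild type. Their libraries ran from 0.342% to 0.412%, from 0.357% to 0.399% and from 0.385% to 0.447%, and all 3 ranges overlapped the wild-type range. The 10 MII oocytes held 0.255% ± 0.0148, from 0.236% to 0.279%, and every one lay below every FGO of any genotype. Among wild-type FGOs the lower set held 0.422% ± 0.0241 (n = 8) and the higher set 0.386% ± 0.0199 (n = 10).

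**Figure D1:**
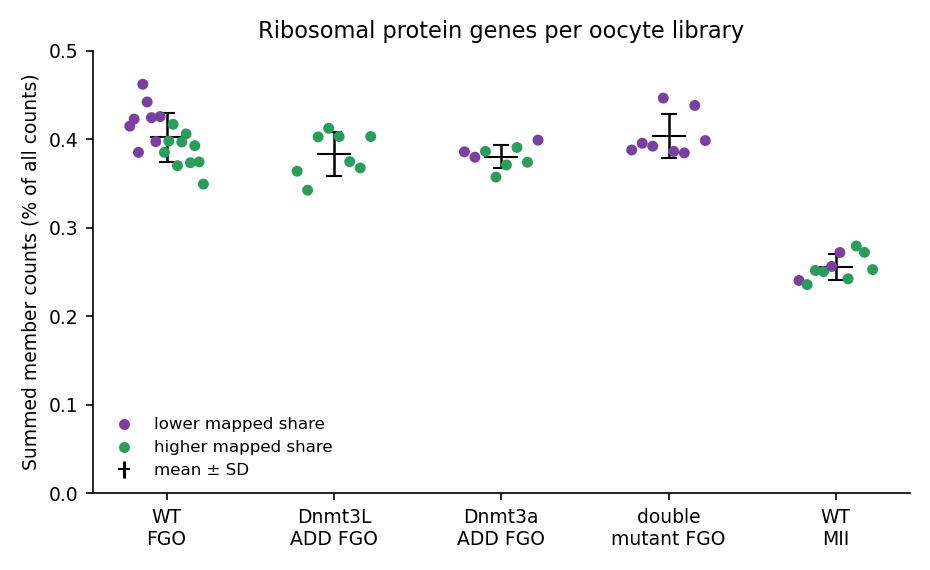
Summed counts of the 87 ribosomal protein genes as a percentage of all counts in each of 52 oocyte libraries, by group, coloured by library set, with bars for mean ± SD. The MII oocytes lie between 0.236% and 0.279%, below every FGO.

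The comparison of MII oocytes with wild-type FGOs asks what becomes of stored mRNA during maturation. Of 83 members tested, 69 were lower and 2 higher in MII at an edgeR adjusted p under 0.05, and 27 of those lower were past 2-fold. Among all 15784 genes tested 21.8% were lower, 18.2% higher and 8.88% lower past 2-fold. The median log2 fold change of the members was -0.69, and that of all genes -0.03. For 40 members every MII oocyte lay below every wild-type FGO, which held for 1.71% of all genes. Changes are relative to the other genes of a library, and total RNA per oocyte was not measured here. The library kit primes on the poly(A) tail, so less mRNA and mRNA with a shorter tail cannot be told apart.

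The members did not change by like amounts. Their log2 fold changes had an SD of 0.72, close to the SD of 0.77 over all genes. The medians of the subunits were near each other, -0.72 over 32 small and -0.68 over 51 large subunit genes, while the SDs were 0.89 and 0.58. Past 2-fold lower were 13 small and 14 large subunit genes. The ratio of small to large subunit counts was 0.547 ± 0.0283 (SD, n = 18) in wild-type FGOs and 0.480 ± 0.0122 (n = 10) in MII oocytes. The MII range of 0.465 to 0.504 lay below the FGO range of 0.507 to 0.599.

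**Figure D2:**
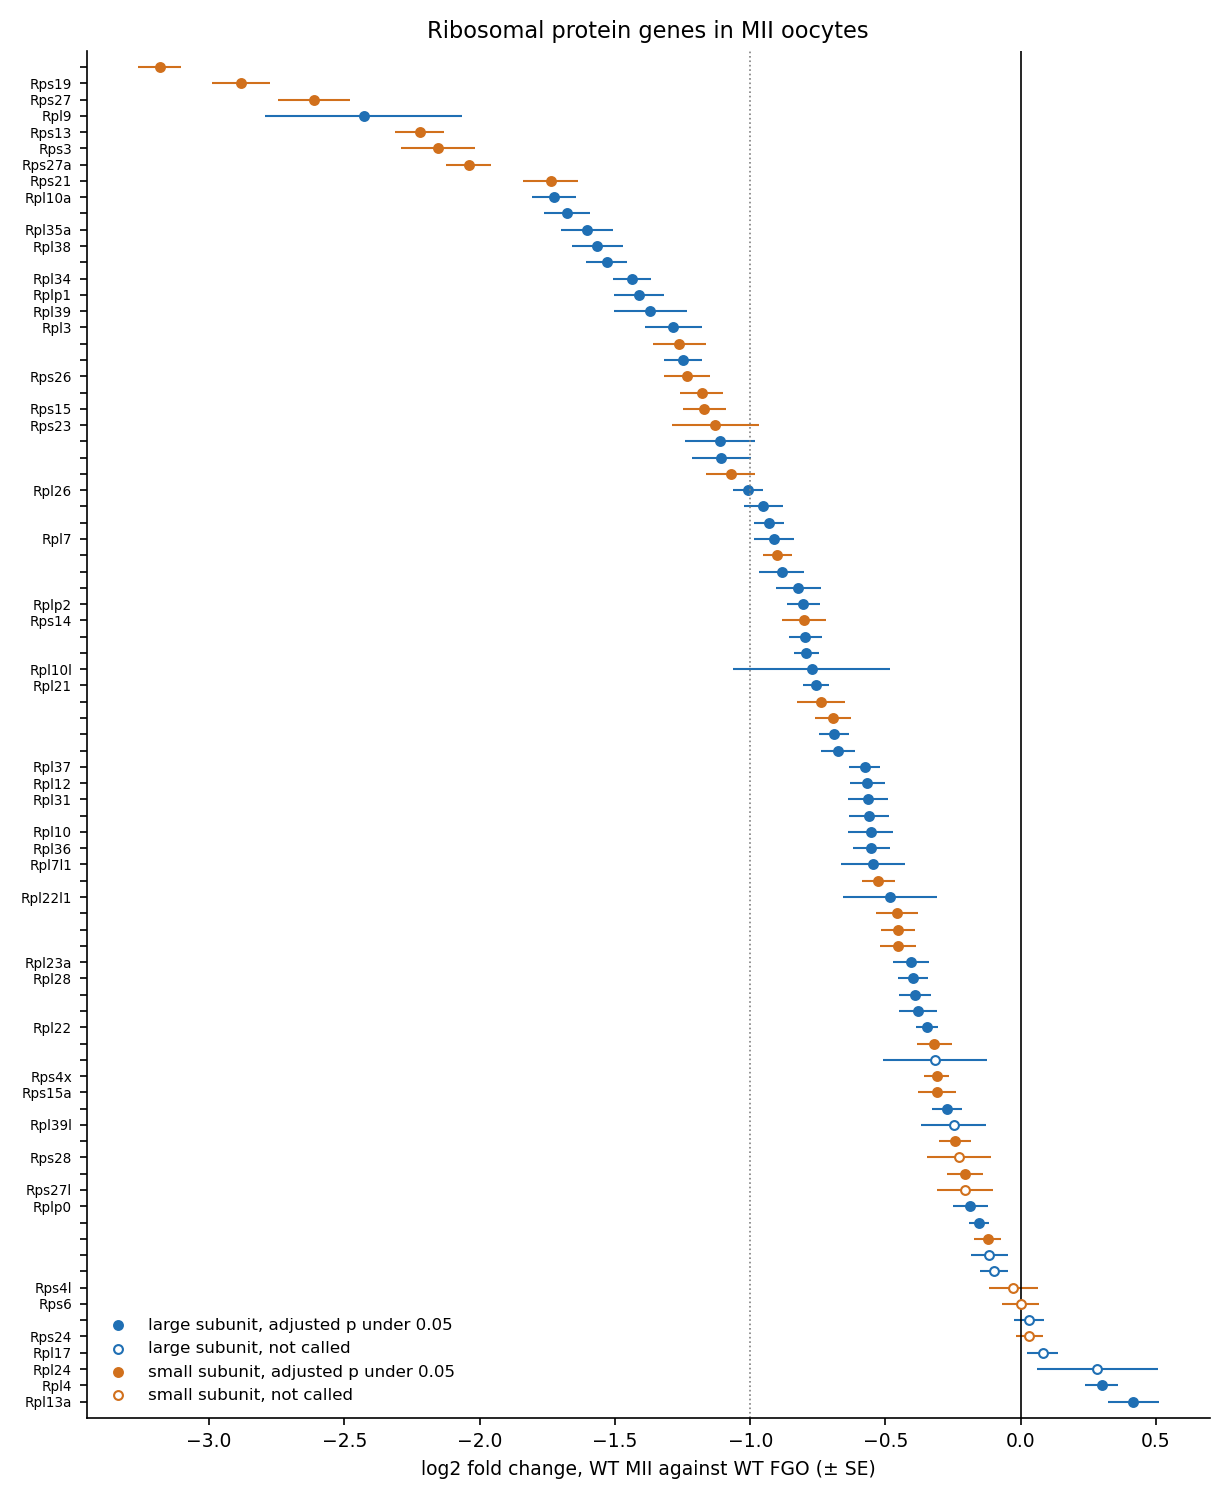
Log2 fold change, MII against wild-type FGO, of the 83 members tested, in order and with SE, by subunit, with names for the members described in the text. Rps19 lies at -2.88 and Rpl13a, the highest, at 0.42.

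Rps19 (chr7:24884371-24889806 in mm10, plus strand), a small subunit protein whose human counterpart is mutated in Diamond-Blackfan anaemia, stood at 16.1, 23.4 and 29.2 CPM in the lowest, median and highest wild-type FGO and at 2.21, 2.91 and 5.08 CPM in MII oocytes. No oocyte of one stage reached the other, and the log2 fold change was -2.88 ± 0.11 (SE; edgeR adjusted p = 8.04e-29). Rps13, of the small subunit, stood at 23.99, 35.8 and 42.9 CPM in FGOs and 6.46, 7.22 and 11.2 CPM in MII. Rps27a, which is made as a fusion with ubiquitin, stood at 35.3, 46.2 and 54.2 and 8.91, 10.8 and 15.4 CPM, and Rpl10a, of the large subunit, at 16.4, 20.5 and 23.3 and 3.63, 6.03 and 8.51 CPM. All 3 had separate ranges, with log2 fold changes of -2.22 ± 0.09, -2.04 ± 0.08 and -1.73 ± 0.08. These 4 were among the 5 members of lowest p that fell.

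The 2 members that rose were both of the large subunit. Rpl4 (chr9:64173375-64178666, plus strand), whose protein lines the peptide exit tunnel, stood at 142, 215 and 245 CPM in wild-type FGOs and 235, 253 and 263 CPM in MII. The ranges overlapped, and the log2 fold change was 0.30 ± 0.06 (edgeR adjusted p = 0.00012). Rpl13a stood at 4.27, 5.83 and 6.86 CPM in FGOs and 5.85, 7.38 and 9.56 CPM in MII, a log2 fold change of 0.42 ± 0.09 (edgeR adjusted p = 0.000432). Within the higher library set alone Rpl13a did not pass the test (0.26, edgeR adjusted p = 0.0792), and Rpl4 did. A further 12 members passed in neither direction. Rps6, the S6 kinase substrate, was one of them at 22.1 ± 2.94 CPM (SD, n = 18) in FGOs and 22.2 ± 2.69 CPM (n = 10) in MII, and Rpl17, the second highest member by TPM, was another at 141 ± 18.9 and 149.5 ± 7.40 CPM.

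The stalk of the large subunit recruits elongation factors and is built from Rplp0, Rplp1 and Rplp2. Rplp1 stood at 88.4, 104 and 144 CPM in wild-type FGOs and 28.6, 40.4 and 60.7 CPM in MII, a log2 fold change of -1.41 ± 0.09. Rplp2 stood at 71.5, 101 and 112 and 47.8, 56.4 and 65.1 CPM (-0.80 ± 0.06), and Rplp0, the scaffold of the stalk, at 98.9, 114 and 157 and 94.8, 102 and 113 CPM (-0.19 ± 0.06). All 3 fell, and only the ranges of Rplp0 overlapped. Rpl12, whose protein sits at the base of the stalk, changed by -0.57 ± 0.06.

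Of the 7 paralogue pairs, 6 had both genes tested, and Rpl3, the partner of Rpl3l, changed by -1.28 ± 0.11. Rps27 stood at 16.4, 22.2 and 30.7 CPM in FGOs and 2.05, 3.71 and 5.63 CPM in MII, a log2 fold change of -2.61 ± 0.13, while its p53-responsive paralogue Rps27l stood at 13.6, 19.1 and 23.99 and 10.3, 16.9 and 20.7 CPM and did not pass the test (-0.21 ± 0.10, edgeR adjusted p = 0.105). Only Rps27 had separate ranges. Rpl39 fell by 1.37 ± 0.13 on the log2 scale, and Rpl39l, known from testis, did not pass (-0.25 ± 0.12, edgeR adjusted p = 0.0957). Rps4x changed by -0.31 ± 0.05, and for Rps4l the value was -0.03 ± 0.09 (edgeR adjusted p = 0.838). Both genes fell in the other 3 pairs, Rpl7 by 0.91 ± 0.07 and Rpl7l1 by 0.55 ± 0.12, Rpl10 by 0.55 ± 0.08 and Rpl10l by 0.77 ± 0.29, and Rpl22 by 0.35 ± 0.04 and Rpl22l1 by 0.48 ± 0.17. The difference within a pair was not tested.

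**Figure D3:**
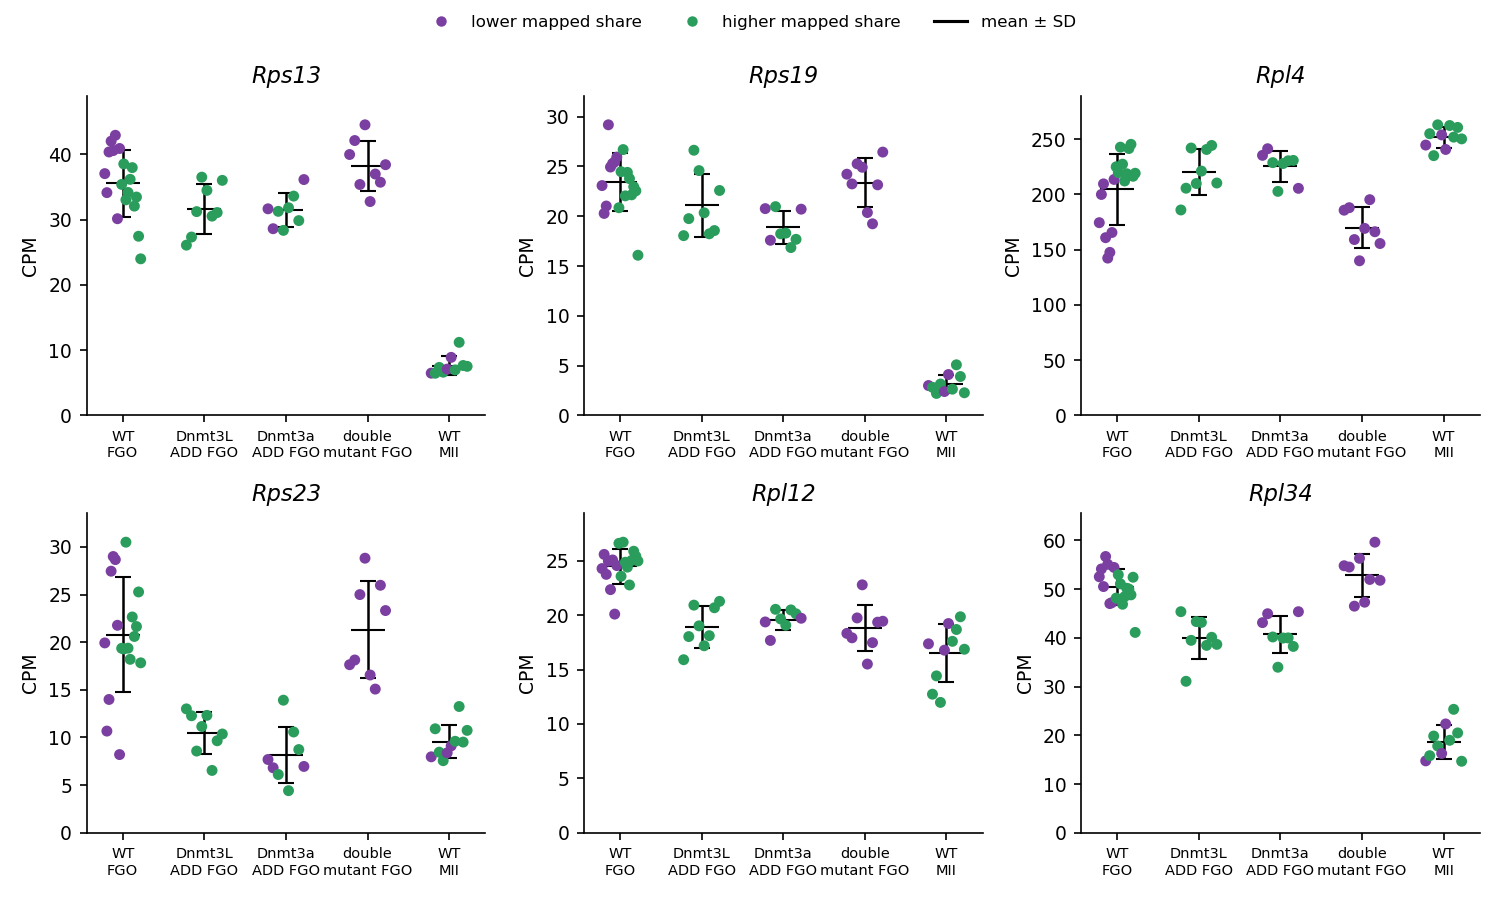
CPM of Rps13, Rps19, Rpl4, Rps23, Rpl12 and Rpl34 in each oocyte library, by group, coloured by library set, with bars for mean ± SD. Rps13 and Rps19 are at most 11.2 and 5.08 CPM in MII, and Rps23 is at most 13.002 and 13.9 CPM in the single mutants but 15.1 to 28.8 CPM in the double mutant.

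Transcript structure was set beside the change at MII. In GENCODE M21, 81 of the tested members had a principal transcript. The 27 past 2-fold lower had a median 3′ UTR of 46 bases (21 of them under 100 bases) and the 42 lower by less had one of 177.5 bases (21 under 100 bases). Of the 12 that passed in neither direction, 10 had a transcript, with a median of 108 bases, and the 2 that rose had 222 and 388 bases. Members with a 3′ UTR under 100 bases had a median log2 fold change of -0.90, with 42 of 47 lower, and the longer ones -0.56, with 27 of 34 lower. The 841 other genes with a 3′ UTR under 100 bases had a median of -0.19 and 33.8% of them were lower. Across the 81 members Spearman's rho of the log2 fold change was 0.31 with 3′ UTR length and 0.27 with mRNA length, and across 13073 genes 0.01 and 0.02. These describe genes that share the same libraries and are not independent. Rps3, at the mRNA entry of the small subunit, fell by 2.15 ± 0.14 with a 3′ UTR of 1059 bases, while Rps6 has 42 bases and did not pass.

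**Figure D4:**
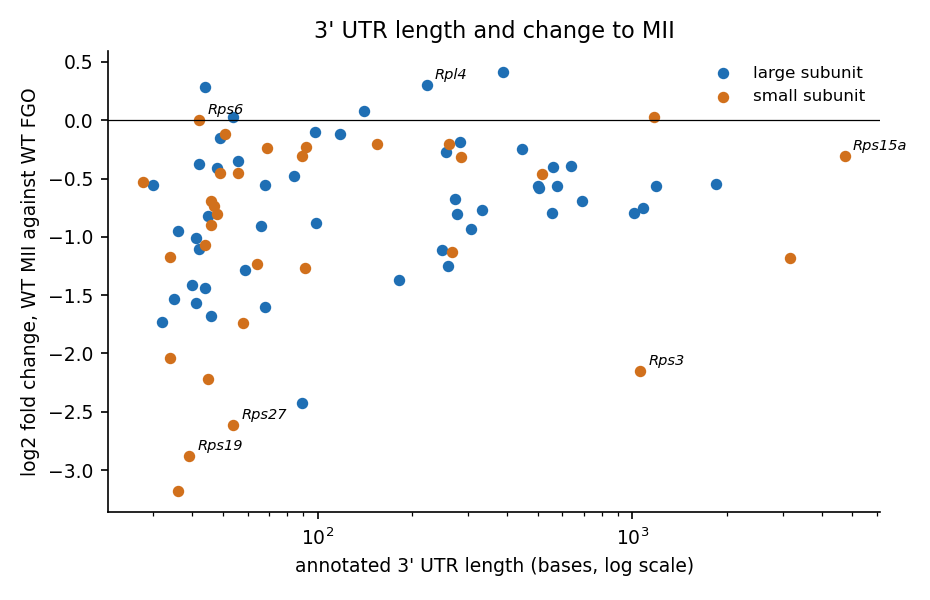
Annotated 3′ UTR length in bases (log scale) of 81 members against their log2 fold change, MII against wild-type FGO. Rps19 lies low with 39 bases, Rps3 lies low with 1059 bases and Rps6 near 0 with 42 bases.

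The start of the transcript was read from RefSeq on GRCm38.p6 for 62 of the 87 members. A C at the listed start with at least 4 further bases of C or T, the form of a TOP tract, was present in 13 of them (20.97%) and in 3.01% of 27025 genes. Such a tract began within 10 bases of the listed start in 39 members (62.9%) and in 34.4% of genes. Start sites were not measured in these oocytes, so a member without a tract at the listed start may still have one. From 250 bases before to 50 after the start, CCGGAA, the ETS-family core, was on either strand in 34 members (54.8%) and 16.7% of genes, and AAGATGGCG, a YY1-type motif, in 4 (6.45%) and 1.64%. TATAAA lay 40 to 16 bases before the start on the gene strand in 1 member (1.61%) and 2.41% of genes. The tract at the start was found in 6 of 20 members past 2-fold lower at MII, 6 of 32 lower by less, 1 of 7 that passed in neither direction and 0 of 2 that rose. Members with a tract that span the range of changes are shown from 10 bases before the listed start to 20 bases from it, with the tract in capitals. They are Rps27 at chr3:90213629-90213658, Rps15a at chr7:118116128-118116157 and Rps6 at chr4:86857348-86857377 on the minus strand, and Rps21 at chr2:180257369-180257398, Rpl35a at chr16:33056472-33056501 and Rplp2 at chr7:141447641-141447670 on the plus strand.
Rps27: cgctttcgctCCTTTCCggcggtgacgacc
Rps21: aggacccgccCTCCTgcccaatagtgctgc
Rpl35a: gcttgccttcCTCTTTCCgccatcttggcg
Rplp2: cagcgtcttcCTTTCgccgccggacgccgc
Rps15a: tttctgccatCTTCCCTCgccggtgagtga
Rps6: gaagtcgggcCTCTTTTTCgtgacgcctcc
In this order their log2 fold changes at MII were -2.61, -1.74, -1.604, -0.80, -0.31 and 0.00. Rps27 has a tract of 7 bases and Rps6 one of 9, so members with a tract at the start stood at both ends of the fall.

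The other lists of translation genes had medians nearer 0 at MII than the members. Their counts stand beside 21.8% of all genes lower and 18.2% higher. Of 5 ribosomal protein genes outside the symbol rule that were tested, all 5 fell, with a median of -0.22. Rpsa, a small subunit protein also known as the laminin receptor, changed by -3.37 ± 0.16 and Fau, which encodes a ubiquitin-like fusion with a small subunit protein, by -0.22 ± 0.05. Of 26 elongation, initiation and other TOP mRNA genes 10 fell and 6 rose (median -0.01), with the initiation factor subunits Eif3k (-0.76 ± 0.06) and Eif3g (-0.62 ± 0.07) at the lowest p. Of 73 mitochondrial ribosomal protein genes 17 fell and 12 rose (median -0.02), led by Mrps22 (-0.77 ± 0.05) and Mrpl52 (-1.08 ± 0.10). Of 58 ribosome biogenesis genes 12 fell and 21 rose (median 0.09), led by the pre-60S remodelling ATPase gene Mdn1 (-3.27 ± 0.41) and by Mrto4 (0.35 ± 0.06). Of 15 genes of the mTOR and LARP control of ribosomal protein mRNAs 2 fell and 4 rose (median 0.03), led by Akt1s1, an mTORC1 inhibitor (0.29 ± 0.06), and Larp4 (0.22 ± 0.07).

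Markers of the oocyte and of ovarian somatic cells were also set beside the stages. Of 12 oocyte markers 6 were lower in MII and none higher, with a median of -0.13. Past 2-fold lower were 2 of them, Zp3 (-1.95 ± 0.07) and Zp2 (-1.45 ± 0.10). The 6 theca and interstitial markers summed to 12.6 to 116 CPM in wild-type FGOs and 1.82 to 11.9 CPM in MII, where Cyp17a1 and Insl3 were at 0, as Insl3 was in wild-type FGOs. The 12 granulosa and cumulus markers summed to 111 to 181 and 107 to 133 CPM, with Amh at 0 in MII, the 8 stroma and smooth muscle markers to 213 to 449.8 and 325 to 454 CPM, with Lum and Acta2 at 0 in MII, and the 8 endothelium and blood markers to 60.8 to 102 and 81.2 to 101 CPM, with Hbb-bs and Hba-a1 at 0 in MII. Of the 8 stroma markers, 3 had a median of at least 1 CPM in wild-type FGOs and 1 in MII, so their sum rests on few genes. Marker by marker, 6 of 11 granulosa markers tested were lower in MII, all past 2-fold, and 1 higher (median -2.46), with the inhibin subunit Inha at -6.01 ± 0.49. All 4 theca markers tested were lower (median -3.34), as were 4 of 6 stroma markers, with 1 higher (median -3.43). The 3 endothelium and blood markers tested had a median of 0.21 and did not pass the edgeR test. The part of the somatic cells in the result was not tested. Within the lower library set, which held only 3 MII oocytes, 53 members were lower in MII and the median was -0.77. Within the higher set, with 7 MII oocytes, 67 were lower and the median was -0.63. Among all genes 6.18% and 14.7% were lower in these fits.

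The 2 sets of wild-type FGO libraries were compared because the mutants are spread unequally over them. Of 82 members tested, 28 were higher and 4 lower in the lower set, against 14.2% and 11.2% of 14664 genes. The median log2 difference, lower minus higher set, was 0.10 over the members and 0.04 over all genes. It was 0.15 for small and 0.08 for large subunit genes. The ratio of small to large subunit counts was 0.574 ± 0.0172 (SD, n = 8) in the lower and 0.5259 ± 0.0116 (n = 10) in the higher set, and the ranges, 0.553 to 0.599 and 0.507 to 0.540, did not overlap. For 7 members every oocyte of the lower set lay above every oocyte of the higher set, and for 1 below, against 0.900% and 1.62% of all genes.

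Rps21, of the small subunit, stood at 51.7, 54.5 and 58.1 CPM in the lowest, median and highest FGO of the lower set and at 34.3, 37.99 and 42.02 CPM in the higher set, a log2 difference of 0.56 ± 0.05 (edgeR adjusted p = 8.16e-07). The sets did not overlap, and neither did they for Rplp1, at 115, 127 and 144 and 88.4, 96.5 and 106 CPM (0.45 ± 0.05). Rps14, the gene of the 5q deletion anaemia (0.48 ± 0.07), Rps26 (0.42 ± 0.07) and Rpl10, a protein added late to the large subunit (0.45 ± 0.07), completed the 5 of lowest p among those higher. The 4 that were lower in the lower set were Rpl4 (-0.33 ± 0.07), Rps28 (-0.56 ± 0.13), Rpl28 (-0.21 ± 0.06) and Rplp2 (-0.23 ± 0.07). The acidic stalk genes Rplp1 and Rplp2 thus differed in opposite directions between wild-type oocytes. Rpl10l, a retrogene known from testis, was the only member past 2-fold, at 1.36, 3.12 and 11.2 CPM in the lower and 1.18, 2.12 and 3.08 CPM in the higher set (1.07 ± 0.33), against 3.06% of all genes in that direction. Its sets overlapped.

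**Figure D5:**
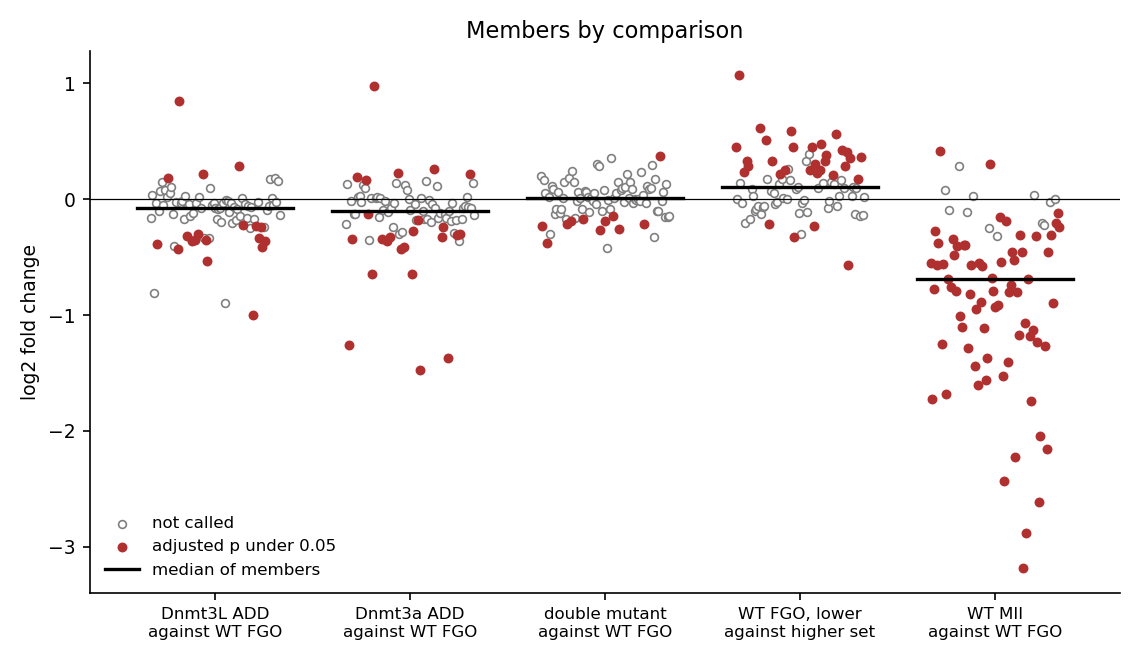
Log2 fold change of each tested member in the comparisons of genotype, wild-type library set and stage, 1 point per member. The medians are -0.08 in the Dnmt3L mutant, -0.10 in the Dnmt3a mutant, 0.01 in the double mutant, 0.10 between the library sets and -0.69 at MII.

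The genotype comparisons ask whether the ADD mutations changed the FGO transcriptome, and all 3 share the same 18 wild-type libraries. In the Dnmt3L mutant 15 of 83 members were lower and 4 higher, against 3.27% and 2.77% of 15726 genes, with a median of -0.08 beside -0.04 for all genes. In the Dnmt3a mutant 18 were lower and 6 higher, against 8.04% and 7.10%, with medians of -0.10 and -0.04. In the double mutant 10 were lower and 1 higher, against 6.96% and 5.44%, with medians of 0.01 and -0.01. Most differences were under 2-fold. Past 2-fold lower were 1 member in the Dnmt3L mutant and 3 in the Dnmt3a mutant, against 0.610% and 1.78% of genes. In the double mutant edgeR and DESeq2 each gave 0 members past 2-fold in either direction, against 1.66% of genes in edgeR. At any fold, 29 of the 83 members had an unadjusted edgeR p under 0.05 there, beside 4586 of the 15726 genes (29.2%).

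Rps23 (chr13:90923131-90924942, plus strand), whose protein sits in the decoding centre, had the largest called difference of any member in the Dnmt3L mutant. It stood at 8.21, 20.3 and 30.5 CPM in the lowest, median and highest wild-type FGO, at 6.54, 10.8 and 13.002 CPM in the Dnmt3L mutant and at 4.42, 7.32 and 13.9 CPM in the Dnmt3a mutant. In the double mutant it stood at 15.1, 20.7 and 28.8 CPM. The single mutants overlapped wild-type FGOs of the lower set, at 8.21 to 29.0 CPM, and not those of the higher set, at 17.8 to 30.5 CPM. The log2 fold changes were -1.004 ± 0.19 (edgeR adjusted p = 0.000769) and -1.37 ± 0.19 (2.97e-06) in the single mutants and 0.03 ± 0.17 (0.918) in the double mutant. Rps23 has 11 near-identical copies in the annotation. With all of them added it summed to 35.5 ± 8.44 CPM (SD, n = 18) in wild-type FGOs, 21.7 ± 4.20 in the Dnmt3L mutant, 17.9 ± 5.18 in the Dnmt3a mutant and 36.6 ± 7.51 in the double mutant (n = 8 each). The sum kept the order of the gene itself. In both single mutants Rps23 passed the test in every alternative run, with log2 fold changes of -0.96 and -1.33 against the lower wild-type set alone. The copy Gm10689 alone stood at 5.60 to 13.6, 4.21 to 8.82, 4.29 to 8.39 and 8.18 to 14.02 CPM in the same groups.

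Rpl12 (chr2:32961559-32965345, plus strand) was lower in each mutant. It stood at 20.1, 24.9 and 26.7 CPM in wild-type FGOs and at 15.9, 18.6 and 21.3, 17.7, 19.7 and 20.5 and 15.5, 18.8 and 22.8 CPM in the Dnmt3L, Dnmt3a and double mutants. The lowest wild-type FGO lay within all 3 mutant ranges, and each mutant median lay below it. The log2 fold changes were -0.39 ± 0.06, -0.34 ± 0.06 and -0.38 ± 0.06, with edgeR adjusted p of 6.36e-05, 0.000107 and 5.03e-05. Rpl12 passed the test in every alternative run for each mutant, and between the wild-type sets its log2 difference was -0.03 ± 0.06 (edgeR adjusted p = 0.721).

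Rpl23a, at the tunnel exit where the signal recognition particle docks, stood at 18.02, 21.97 and 24.6 CPM in wild-type FGOs and at 12.7, 14.1 and 15.8 CPM in the Dnmt3a mutant. It was the only member whose ranges did not overlap in a mutant, against 0.153% of all genes lower in that way. Its log2 fold changes were -0.43 ± 0.07, -0.65 ± 0.08 and -0.22 ± 0.07 in the Dnmt3L, Dnmt3a and double mutants. Rpl34 was lower in the single mutants, by 0.35 ± 0.06 and 0.33 ± 0.06 on the log2 scale, and stood at 46.5 to 59.6 CPM in the double mutant beside 41.1 to 56.7 CPM in the wild type. Rpl31, another protein of the exit region, changed by -0.36 ± 0.08 in the Dnmt3L and -0.36 ± 0.08 in the Dnmt3a mutant, and Rpl38, the gene of the Tail-short mouse, by -0.35 ± 0.08 and -0.43 ± 0.08. The other 2 members past 2-fold in the Dnmt3a mutant were Rpl9 (-1.48 ± 0.32) and Rpl10l (-1.26 ± 0.35). Both are at low counts, Rpl9 at 0.379 to 2.28 CPM beside 1.19 to 6.52 CPM in the wild type and Rpl10l at 0.4932 to 3.44 beside 1.18 to 11.2 CPM.

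Few members were higher in the single mutants. Rps15 rose by 0.29 ± 0.08 on the log2 scale in the Dnmt3L and 0.26 ± 0.07 in the Dnmt3a mutant, and Rpl37 by 0.21 ± 0.06 and 0.22 ± 0.06. Rpl37rt, a near-identical copy of Rpl37 whose counts ran from 100.1 to 149 CPM in wild-type FGOs, did not pass in either (-0.02 ± 0.06 and -0.13 ± 0.06, edgeR adjusted p = 0.867 and 0.146), and how reads were divided between them is not known. Rpl24 had the highest estimates, 0.84 ± 0.22 and 0.98 ± 0.22, from a level of 0.482 ± 0.203 CPM in wild-type FGOs. Rpl21 (0.17 ± 0.05) and Rps6 (0.22 ± 0.07) rose in the Dnmt3a mutant. Each of the 3 named here in the Dnmt3L mutant and each of the 5 named here in the Dnmt3a mutant except Rpl24 did not pass in at least 1 alternative. Without Dnmt3a mutant replicate 4, Rps6 did not pass (0.17, edgeR adjusted p = 0.0996).

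The counts depended on which wild-type libraries were used. Against the higher set alone, to which all Dnmt3L mutant libraries belong, 9 members were lower and 4 higher in the Dnmt3L mutant (2.89% and 3.96% of all genes), and against the lower set alone 30 and 5 (11.6% and 10.5%). For the Dnmt3a mutant, with 5 libraries in the higher and 3 in the lower set, these counts were 16 and 9 against the higher (6.27% and 8.33% of all genes) and 33 and 6 against the lower set (15.3% and 13.6%). The double mutant libraries are all of the lower set, and against it 1 member was lower, Rpl12, and 1 higher, Rps4l, against 0.982% and 0.428% of all genes. Against the higher set 19 were lower and 24 higher, against 17.4% and 20.4% of all genes. The median of the double mutant was -0.07 against the lower and 0.07 against the higher set.

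Beside Rpl12, the double mutant members lower at the lowest p against all wild-type FGOs were Rplp2 (-0.25 ± 0.06), Rps24 (-0.21 ± 0.05), Rpl4 (-0.27 ± 0.07) and Rpl26 (-0.19 ± 0.05). Against the lower set alone none of these 4 passed, and Rpl4, at 139.9, 168 and 195 CPM in the double mutant and 142, 169.9 and 213 CPM in the lower wild-type set, gave -0.07 (edgeR adjusted p = 0.801). Rps4l, a paralogue of Rps4x, was the 1 member higher, at 30.6, 38.05 and 52.4 CPM beside 19.6, 30.5 and 39.9 CPM in the wild type (0.37 ± 0.10, edgeR adjusted p = 0.012). Its groups overlapped. The ratio of small to large subunit counts was 0.575 ± 0.0106 (SD, n = 8) in the double mutant, 0.528 ± 0.0111 (n = 8) in the Dnmt3L mutant and 0.527 ± 0.0150 (n = 8) in the Dnmt3a mutant.

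An interaction contrast, chosen after the data were seen, tested whether the double mutant differed from the sum of the single mutant changes. It was higher for 33 of 83 members and lower for 10, against 20.4% and 15.2% of all genes, and past 2-fold for 7, against 10.5% in either direction. With the library set as a covariate 15 were higher and 8 lower, against 6.35% and 7.50% of all genes. Rps23 differed by 2.41 ± 0.28 on the log2 scale (edgeR adjusted p = 8.34e-08), and by 2.55 with the covariate. Rpl34 (0.75 ± 0.09), Rpl23a (0.86 ± 0.11), Rps27l (1.02 ± 0.17) and Rpl38 (0.74 ± 0.13) were the next by p in that direction. Rps6 (-0.55 ± 0.11), Rpl24 (-1.64 ± 0.35), Rpl37 (-0.46 ± 0.10) and Rps15 (-0.54 ± 0.12) were among the 5 of lowest p in the other.

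Of the ribosomal protein genes outside the rule, Rpsa (-0.19 ± 0.05 and -0.24 ± 0.05) and Rpl36al (-0.35 ± 0.11 and -0.42 ± 0.11) were lower in the Dnmt3L and Dnmt3a mutants, and neither passed in the double mutant or between the sets. Of the 26 elongation and other TOP genes 1, 7 and 3 were lower and 2, 1 and 1 higher in the Dnmt3L, Dnmt3a and double mutants, with Tpt1 among those lower (-0.21 ± 0.05 and -0.26 ± 0.05 in the single mutants). Of 58 ribosome biogenesis genes 4, 7 and 13 were lower and 4, 10 and 3 higher. Between the wild-type sets 22 of them were lower and 5 higher in the lower set, against 11.2% and 14.2% of all genes. Their median was -0.17, of the opposite sign to that of the members. Of 73 mitochondrial ribosomal protein genes 2, 7 and 5 were lower and 1, 5 and 5 higher. Of the 15 control genes none was lower and 1, 2 and 2 were higher, with Akt1s1 at 0.34 ± 0.07 and 0.39 ± 0.07 in the single mutants. Among all genes 3.27%, 8.04% and 6.96% were lower and 2.77%, 7.10% and 5.44% higher in the Dnmt3L, Dnmt3a and double mutants.

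Marker sums moved with genotype and set as well. Of 12 oocyte markers 8 were lower in the Dnmt3L and 10 in the Dnmt3a mutant, with medians of -0.21 and -0.31, and 3 were higher in the double mutant, with a median of 0.18. The 6 theca and interstitial markers summed to 8.50 to 43.1, 4.59 to 40.8 and 1.91 to 5.33 CPM in the Dnmt3L, Dnmt3a and double mutants. The 8 stroma and smooth muscle markers summed to 213 to 323 CPM in the lower and 331 to 449.8 CPM in the higher wild-type set, and to 288 to 470.3, 342 to 452 and 210.3 to 304 CPM in the mutants, with Lum and Acta2 at 0 in the double mutant. Of these 8 stroma markers, 2 and 4 had a median of at least 1 CPM in the lower and higher wild-type sets. In the Dnmt3L, Dnmt3a and double mutants 2, 3 and 1 did, so the stroma sums rest on few genes. Granulosa and cumulus markers summed to 107 to 138, 109 to 160.1 and 117 to 138 CPM, and endothelium and blood markers to 76.3 to 94.96, 83.0 to 134 and 47.1 to 75.6 CPM. In the Dnmt3L, Dnmt3a and double mutants 2, 4 and 6 of 11 granulosa markers tested were lower and 0, 1 and 1 higher, with medians of -0.52, -0.93 and -1.52, and Inha changed by -1.55 ± 0.32, -1.89 ± 0.33 and -3.45 ± 0.37. Of 4 theca markers 1, 2 and 4 were lower and none higher (medians -1.03, -1.43 and -3.86), and of 6 stroma markers 0, 1 and 5 were lower and 0, 1 and 0 higher (medians -0.42, 0.58 and -3.51). Of 3 endothelium and blood markers 0, 0 and 2 were lower and 0, 1 and 0 higher (medians 0.12, 0.29 and -0.27). Between the wild-type sets 4 of 12 oocyte markers were higher in the lower set and none lower, with a median of 0.16. Of the somatic markers, 1 granulosa and 1 theca marker were higher in the lower set. There 2 stroma and 1 endothelium and blood markers were lower, and no other somatic marker was called. The theca marker was Cyp17a1 (4.88 ± 0.54), also the 1 called lower in the Dnmt3L mutant (-4.70 ± 1.14), whose libraries are all of the higher set. The part of the somatic cells in the changes of the members was not tested. The library set was examined only by splitting the wild-type FGOs and as a covariate.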

How the data were processed

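Single-oocyte libraries were prepared with the SMART-Seq HT kit. Per the labels and the study's methods, the authors used STAR and mm10, with featureCounts and HTSeq for counting. The deposited values are raw counts per gene, with a gene length of merged exons, for 51734 genes. The annotation release and the strand setting are not given in the sources used here, and a gene and its antisense partner cannot be told apart. Embryo libraries were not used here.

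Counts were tested with edgeR 4.0.16 in R 4.3.3 (TMM, filterByExpr with a minimum count of 10, glmQLFit and glmQLFTest), with Benjamini-Hochberg adjustment over all genes tested and a threshold of 0.05. Genotypes were compared in a fit of 42 FGOs, library sets in 18 wild-type FGOs and stages in a fit of 52 oocytes. SE is that of the log2 fold change. CPM are after TMM over 52 libraries. Library totals (7832458 to 23739871) limit the precision of the lowest members. No pair of libraries of a group agreed within sampling noise (lowest chi-square per degree of freedom 5.39). Alternatives were DESeq2 1.42.0, RLE factors, total counts, scaling without the members, no filter, a replicate block, the library set as covariate or split, and Dnmt3a mutant replicate 4 left out. The fit was also run on counts simulated from the wild-type FGOs, for the Dnmt3L mutant and MII comparisons only. These counts held no difference between library sets, and the outcome is not reported here.

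The members and gene lists were chosen with earlier results of these data known. Members are named by rule: the 5 of lowest p in each direction per comparison, the stalk genes, 7 paralogue pairs, the highest and lowest 3 by TPM and those not tested. Some members that the rule picks are not reported here. Rps3, Rps15a and Rpl35a were named after their values were seen. Sequences are RefSeq, GRCm38.p6, and copies were found with BLAST+ 2.17.0.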

Additional observations from a re-analysis of the deposited data

Results flagged for a closer look

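One oocyte stood apart from the rest of its group in 11 of 176 groups examined (6.25%), and about 1 in 20 groups would by chance. In the Dnmt3L mutant these were Rpl13a in replicate 5 at 3.50 CPM and Rpl39 in replicate 2 at 6.37 CPM, both below the others. In the double mutant they were Rpl17 in replicate 7 at 112 CPM, Rpl37 in replicate 8 at 61.4 CPM and Rpl39l in replicate 5 at 9.45 CPM, which were low, and Rps28 and Rps4l in replicate 4 at 10.5 CPM and 52.4 CPM, which were high. In MII oocytes Rpl22l1 in replicate 6 at 3.42 CPM, Rpl37 and Rps13 in replicate 8 at 61.5 CPM and 11.2 CPM, and Rpl7l1 in replicate 9 at 22.4 CPM were high.

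The interaction contrast between the mutations passed the test for the members of lowest p, of which 9 are given here. In the contrast without a covariate, genotype and library set cannot be told apart. The log2 differences were 2.41 for Rps23, 0.75 for Rpl34, 0.86 for Rpl23a, 1.02 for Rps27l and 0.74 for Rpl38, and -0.55 for Rps6, -1.64 for Rpl24, -0.46 for Rpl37 and -0.54 for Rps15. With the library set as a covariate Rps6 alone of these 9 did not pass (-0.35, edgeR adjusted p = 0.0543). Rps27l also differed between the wild-type sets, at 21.7 ± 1.43 CPM (SD, n = 8) in the lower and 16.8 ± 2.30 CPM (n = 10) in the higher set (0.41 ± 0.09, edgeR adjusted p = 0.00195).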

How the results depend on the processing

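At MII the members lower numbered 53 to 74 over the alternatives, those past 2-fold 27 to 29 and the median ran from -0.77 to -0.63, with 1 member higher within the higher library set. Between the wild-type sets the members higher numbered 19 to 33 and those lower 3 to 4. In the Dnmt3L mutant the members lower numbered 9 with no filter, 32 with the replicate block, 7 with the library set as covariate, 30 against the lower and 9 against the higher wild-type set. The members higher numbered 2 with total counts, 1 with no filter and 2 with the covariate. Past 2-fold were 0 with DESeq2, RLE factors or scaling without the members, and 2 with the replicate block or the lower set, and the median was -0.17 with the block and -0.16 against the lower set. In the Dnmt3a mutant 35 were lower with the replicate block, 33 against the lower set and 15 without replicate 4. In the double mutant 5 were lower with no filter, 1 with the replicate block, the covariate or the lower set, and 19 against the higher set, and 3 were higher with DESeq2 and 24 against the higher set. The interaction contrast, whose alternatives were chosen after seeing the data, gave 15 higher, 3 past 2-fold and a median of 0.0443 with the covariate, and 4 past 2-fold with the higher set. Shares of all genes are given above for only some of these alternatives. Without such a share, a count of members cannot be told apart from a change in how many genes passed. The cause was not tested.

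Of the alternative fold changes of named members, 341 kept direction and side of the threshold, 39 kept direction and did not pass, and none changed sign. In TPM, 5 of the 6 highest and lowest members moved by more than 1 SD with the principal transcript length. Replicate numbers did not pair the oocytes. Of 8 same-numbered pairs with the wild type, 2, 4, 2 and 0 correlated over 0.1 in the Dnmt3L, Dnmt3a and double mutants and at MII. The mutant FGOs are numbered 1 to 8, and the wild-type FGOs of these numbers are all of the lower set. In the genotype comparisons the block therefore set the mutants against the lower wild-type set, and is not an alternative apart from that set.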
